A study of Saccharomyces cerevisiae with 9 samples.

Results

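Cells of *Saccharomyces cerevisiae* CAT-1 grown with the antifoam labelled Ind_Z were compared with cells of the same strain grown with the antifoam labelled Ind_B. The comparison used the 6 libraries of these groups, 3 of Ind_Z and 3 of Ind_B, out of 9 in the series, and no untreated control library entered the fit. CAT-1 is a strain used in Brazilian fuel-ethanol plants. In both groups the cells went through 5 cycles of fed-batch fermentation of a molasses medium made from sugar cane, were treated with acid between cycles and gave samples 4 h into the final cycle. The composition and dose of the antifoams are not stated in the sources used here. The labels do not say whether the 3 replicates of a group were separate fermentations, so the p-values below measure the spread between these libraries, which may be technical. All 6106 genes that passed the filter on low counts were tested, of 6357 rows in the table.

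Antifoams are surface-active agents, often oils or polymers, that fermentation plants add to break foam, and they meet the yeast at its cell wall and plasma membrane. Budding yeast sets its growth by nutrients: genes for ribosomal proteins, for amino acid synthesis and for the passage from G1 into S phase are transcribed strongly in growing cells. Genes for the use of poor nitrogen and sulfur sources, for autophagy and for meiosis are transcribed when better nutrients run short. Stress genes under the transcription factors Msn2 and Msn4 usually run against the growth genes.

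The Ind_B libraries held 13437215, 9492360 and 17943055 counted reads, and the Ind_Z libraries 15091487, 5900571 and 10027292. Levels are CPM, a library's counts for a gene over its total and put on a common scale, after scaling by TMM factors (trimmed mean of M-values, from 0.894 to 1.17) and are given for replicates 1, 2 and 3 in that order. The Ind_Z libraries resembled each other more than the Ind_B libraries did, with Spearman correlations over genes of 0.9931 to 0.9949 against 0.9759 to 0.9882, and the first principal component (61.7% of the variance) separated the groups. The median standard deviation of log2 CPM over genes was 0.115 in Ind_Z and 0.174 in Ind_B. The 20 most abundant genes held 23.9% to 31.5% of counts.

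The 15 largest rises by the rule for named genes were the G1 and S phase genes PCL1, RNR1, CLN1, MCD1, TOS6, TOS4, CLB6, CLN2 and RNR3, the stress genes DDR2 and TMA10, the cell wall genes CWP2 and PIR3, the lysine gene LYS9 and the hexose transporter gene HXT1. Ribosomal protein genes rose by less but in the largest share of any list, and JLP1, DAL3 and YCT1, for alternative sulfur and nitrogen sources, were among the largest falls. The quasi-likelihood test of edgeR, adjusted by the Benjamini-Hochberg method, called 1251 of the 6106 genes (20.5%) at an adjusted p under 0.05. Of these 799 were higher in Ind_Z (13.1% of genes tested) and 452 lower (7.4%). Rises were larger than falls: 197 genes rose and 15 fell by at least 2-fold, and 17 rose and 0 fell by at least 4-fold. The share of genes called higher grew with the level: it was 4.32% in the lowest quartile of mean CPM and 29.9% in the highest quartile, while 6.61% and 2.75% of these quartiles were called lower. Counts in the gene lists below stand beside the 13.1% and 7.4% of all genes. The lists were not matched to genes of like level, so a list of abundant genes may hold more higher calls. In 1250 of the 1251 called genes all 3 libraries of one group lay above all 3 of the other, as they did in 42.6% of all genes tested. The rule for the 15 largest rises and 15 largest falls required such separation. Statements below that groups were apart therefore describe called genes and add no support to a call. Scaling by the upper quartile moved the median fold change of all genes from -0.02 to -0.11 (log2) and called 1527 genes, 659 higher and 868 lower, so that 43.2% of calls were higher against 63.9% with TMM factors. Without Ind_Z replicate 2 or 3 the calls numbered 543 and 562, without Ind_Z replicate 1 782, and with the 3 control libraries added to the fit 26. In that last fit 141 of the 153 genes named by rule lost their call, PCL1 (adjusted p = 0.0925), RNR1 (0.0767), CLN1 (0.0929), MCD1 (0.107), CWP2 (0.0918) and LYS9 (0.0583) among them, and DDR2 (0.0361), HSP12 (0.0472) and HES1 (0.0499) were called.

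**Figure D1:**
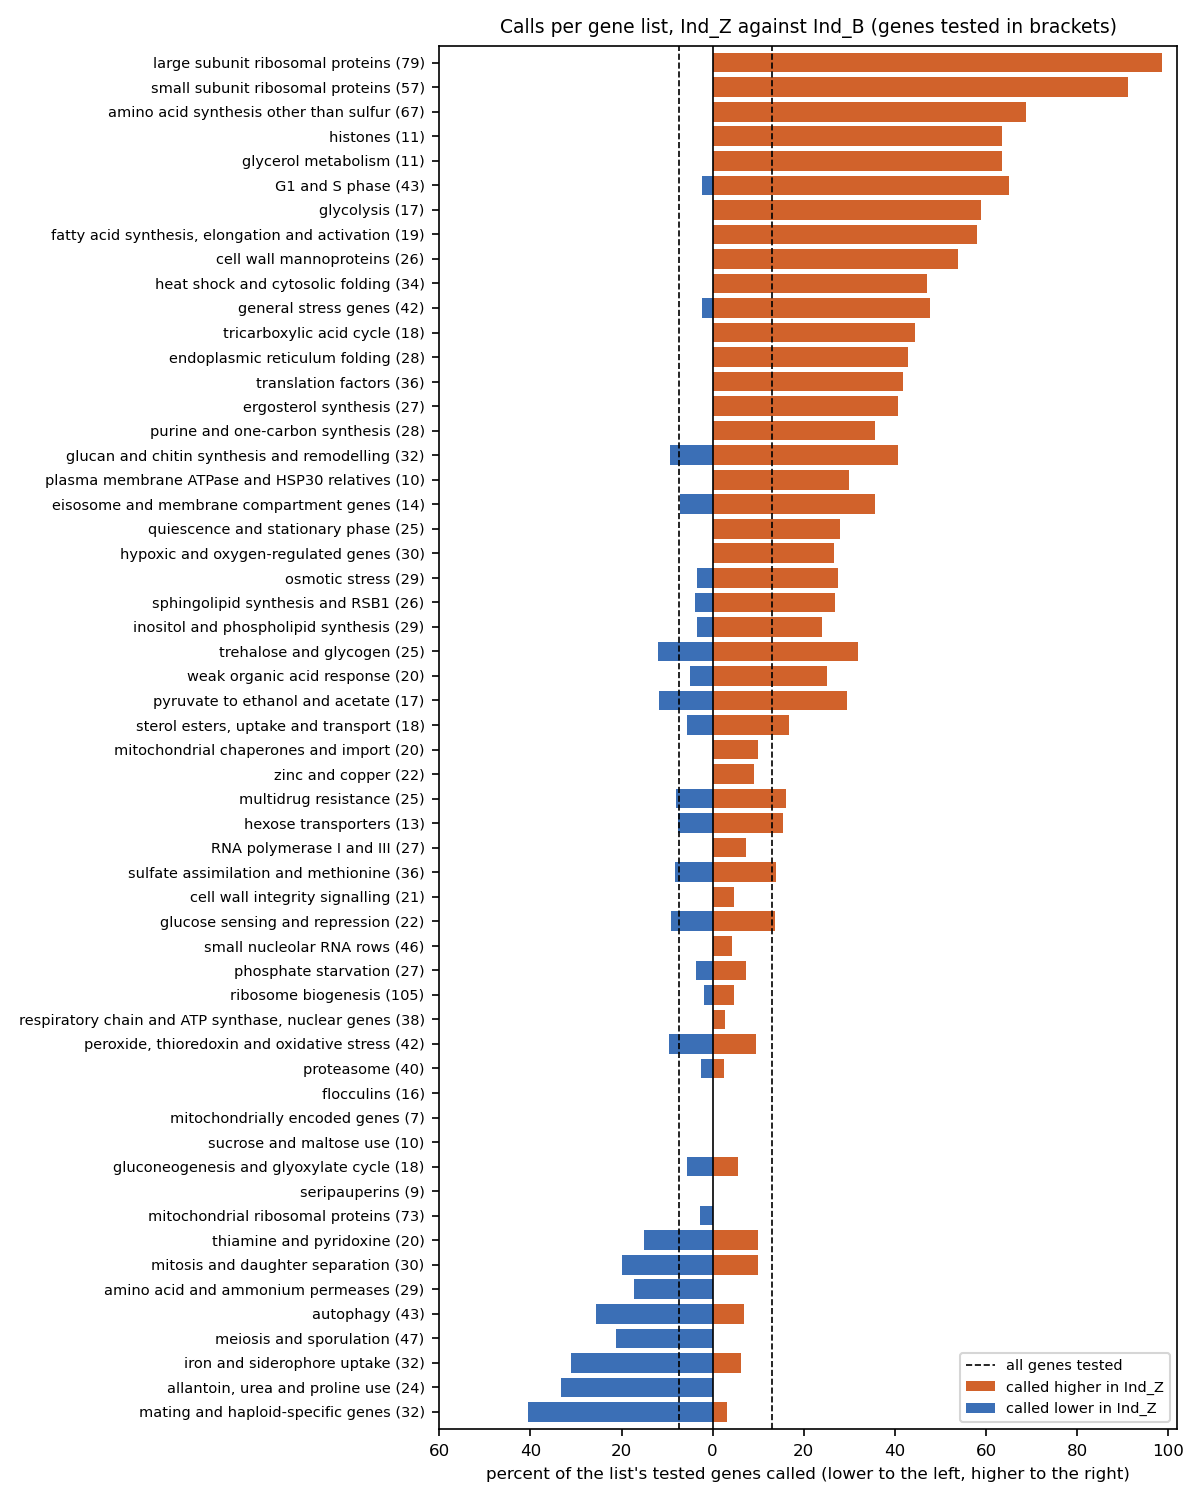
Percent of tested genes called higher (right, orange) and lower (left, blue) in Ind_Z for each of 56 gene lists, with the number of tested genes in brackets and dashed lines at the shares over all genes (13.1% higher and 7.4% lower). Ribosomal protein genes stood at the top, with 78 of 79 large subunit genes called higher, and mating genes at the bottom, with 13 of 32 called lower.

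Sequence upstream of the genes was read from RefSeq assembly R64, a reference of strain S288C and not of CAT-1. The windows below run from 250 to 101 bases before the annotated start, 5′ to 3′ on the gene's strand, and show PCL1, with the largest rise, JLP1, DAL3 and YCT1, whose falls were the largest where libraries averaged 50 or more counts, and one gene each for the cell cycle, amino acid and stress motifs. Capitals mark matches, on either strand, to ACGCGT (the MCB element of the G1 factor MBF) in RNR3, TGACTC (the site of Gcn4, which activates amino acid synthesis genes) in LYS12 and JLP1, AGGGG (the stress response element of Msn2 and Msn4) in DDR2, and GATAAG (the site of the GATA factors of nitrogen use) in DAL3. One motif is marked per gene, and none in PCL1 and YCT1. RNR3, LYS12 and DDR2 were chosen because they hold their motif, and do not typify the largest rises. In the 250 bases before the start, PCL1, RNR1, CLN1, CLN2, CLB6, MCD1, TOS4 and TOS6 had no match to ACGCGT. LYS9 had none to TGACTC and TMA10 none to AGGGG. Left in lower case are a GATA site in PCL1, which rose, and stress response elements in JLP1 and YCT1, which fell. They begin 124, 248 and 240 bases before the start. Further motifs may occur in lower case.
PCL1: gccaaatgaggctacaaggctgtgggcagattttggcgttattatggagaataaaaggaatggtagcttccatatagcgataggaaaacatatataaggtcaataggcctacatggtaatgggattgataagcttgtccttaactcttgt
RNR3: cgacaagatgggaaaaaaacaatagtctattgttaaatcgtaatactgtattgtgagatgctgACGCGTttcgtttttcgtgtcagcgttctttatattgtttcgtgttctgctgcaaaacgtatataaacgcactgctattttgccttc
LYS12: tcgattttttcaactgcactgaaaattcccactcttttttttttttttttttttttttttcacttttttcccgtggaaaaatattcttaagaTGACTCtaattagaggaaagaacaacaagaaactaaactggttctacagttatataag
DDR2: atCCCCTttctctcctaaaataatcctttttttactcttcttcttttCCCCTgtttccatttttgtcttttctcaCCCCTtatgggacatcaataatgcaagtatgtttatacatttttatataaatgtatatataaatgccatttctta
JLP1: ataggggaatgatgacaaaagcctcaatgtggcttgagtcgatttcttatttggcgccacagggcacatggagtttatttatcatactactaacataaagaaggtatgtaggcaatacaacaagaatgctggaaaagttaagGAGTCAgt
DAL3: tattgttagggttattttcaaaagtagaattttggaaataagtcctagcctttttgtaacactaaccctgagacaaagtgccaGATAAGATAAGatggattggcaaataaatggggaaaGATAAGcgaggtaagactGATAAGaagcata
YCT1: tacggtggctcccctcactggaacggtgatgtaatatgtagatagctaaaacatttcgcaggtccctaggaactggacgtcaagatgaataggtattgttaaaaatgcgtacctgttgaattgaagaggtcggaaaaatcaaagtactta

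PCL1 is on chromosome XIV, RNR3, LYS12 and DAL3 on IX, DDR2 on XV, and JLP1 and YCT1 on XII. Stress response elements began 248, 203 and 175 bases before the start of DDR2, and GATA sites began 167, 162, 131 and 113 bases before that of DAL3, the first pair overlapping. Over the full 250 bases before the start, the MCB element was found in 3.0% of 5649 windows, in 6.2% of the 760 of genes called higher (47) and in 0.2% of the 449 of genes called lower (1). The Gcn4 site was in 6.4% of all windows, 9.6% of those called higher and 7.8% of those called lower. The stress response element was in 19.0%, 18.7% and 16.9% and the GATA site in 12.4% of all windows and 14.7% of those called lower. In all, 18 motifs were matched. AAAATTTT (the RRPE element of the factor Stb3) was in 8.9% of all windows, 10.9% of those called higher and 4.0% of those called lower. TCGTATA (the site of the factors Upc2 and Ecm22) was in 3.9%, 4.9% and 1.3%. These matches describe the windows and were not tested.

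Genes that carry cells from G1 into S phase held the largest rises of all. Of 43 tested genes in the list, 28 were called higher and 1 lower, with a median log2 fold change of 0.60 against -0.02 over all genes. With 1 library left out, 23 (without any one Ind_Z library) to 30 (without Ind_B replicate 3) were called higher. PCL1, a cyclin of the kinase Pho85 made in late G1, was at 9.6, 10.3 and 13.7 CPM in Ind_B and 114, 107 and 90.5 CPM in Ind_Z. Every Ind_Z library was far above every Ind_B library (log2 fold change 3.20 ± 0.16 (SE), adjusted p = 9.99e-06). The G1 cyclin gene CLN1 was at 12.7, 12.2 and 15.4 CPM in Ind_B and 88.3, 119 and 83 CPM in Ind_Z, and its partner CLN2 at 26.5, 26.6 and 36.1 CPM in Ind_B and 129, 146 and 125 CPM in Ind_Z. Neither gene's groups overlapped (log2 fold change 2.83 ± 0.17 (SE), adjusted p = 3.43e-05 for CLN1 and log2 fold change 2.15 ± 0.14 (SE), adjusted p = 6.43e-05 for CLN2). CLB6, an S phase cyclin, was at 4.98, 5.17 and 4.46 CPM in Ind_B and 23.4, 22.6 and 22.8 CPM in Ind_Z, with almost no spread within a group (log2 fold change 2.25 ± 0.14 (SE), adjusted p = 5.66e-05), while the other S phase cyclin CLB5 rose less (log2 fold change 0.49 ± 0.12 (SE), adjusted p = 0.0235). CLB5 was not called without Ind_Z replicate 1 or 3.

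DNA precursor and replication genes rose with the cyclins. RNR1, the large subunit of ribonucleotide reductase, was at 196, 168 and 234 CPM in Ind_B and 1649, 1637 and 1763 CPM in Ind_Z. It was the most strongly changed of the reductase genes (log2 fold change 3.08 ± 0.15 (SE), adjusted p = 9.99e-06), and the groups stood clear of each other. RNR3, its DNA damage-inducible counterpart, was at 65.3, 30.8 and 79.2 CPM in Ind_B and 209, 349 and 220.2 CPM in Ind_Z (log2 fold change 2.14 ± 0.32 (SE), adjusted p = 0.00266), and the small subunits RNR2 (0.71) and RNR4 (0.84) rose less. The thymidylate synthase gene CDC21 (1.74), the sliding clamp gene POL30 (1.35), the polymerase alpha genes POL1 (1.18) and POL12 (0.60), and the genes of the single-strand binding protein RFA1 (0.51), RFA2 (0.43) and RFA3 (0.89) were all called. MCD1, the cohesin subunit loaded in S phase, was at 13.3, 16.52 and 18.42 CPM in Ind_B and 108.5, 114.6 and 104.7 CPM in Ind_Z, again without overlap (log2 fold change 2.76 ± 0.13 (SE), adjusted p = 9.99e-06). TOS4 (2.45) and TOS6 (2.65), targets of the G1 factor SBF, and the repressor gene YOX1 (1.42) followed. Of the 15 genes of the list with an MCB element in the upstream window 12 were called higher, and of the 28 without one 16, with medians of 0.53 and 0.72. POL12 was not called without Ind_B replicate 1 or Ind_Z replicate 1 or 2. RFA1 was not called without Ind_Z replicate 1, 2 or 3. RFA2 was not called without Ind_Z replicate 2 or 3.

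Of the genes made earlier, at the boundary of mitosis and G1, none in the list was called higher. Those in the list were the helicase genes MCM2 to MCM7, the loading factor gene CDC6, the G1 cyclin gene CLN3 and the factor gene SWI4. Among them MCM5 was called lower (log2 fold change -0.48 ± 0.13 (SE), adjusted p = 0.0291). The others were not called, at log2 fold changes of -0.33 for MCM2, 0.01 for MCM3, -0.17 for MCM4, -0.25 for MCM6, 0.07 for MCM7, -0.04 for CDC6, 0.08 for CLN3 and 0.29 for SWI4. The factor subunit genes MBP1 (-0.23) and SWI6 (0.11) and the inhibitor gene WHI5 (0.27) were not called either. These genes were grouped by time of transcription after their values were seen. In the list for mitosis and daughter separation 3 of 30 genes were called higher and 6 lower, and the 6 became 1 without Ind_Z replicate 2 or 3, 2 without Ind_B replicate 3 and 3 without Ind_Z replicate 1. The mitotic cyclin CLB1 was at 5.62, 4.86 and 5.7 CPM in Ind_B and 9.52, 18.1 and 15 CPM in Ind_Z, with the groups apart (log2 fold change 1.35 ± 0.24 (SE), adjusted p = 0.00532), whereas its relative CLB2 was not called (0.40). PCL9, a Pho85 cyclin of early G1, was at 11.8, 13.1 and 11.5 CPM in Ind_B and 7.39, 6.5 and 6.03 CPM in Ind_Z. It moved opposite to PCL1, with each Ind_Z library under each Ind_B library (log2 fold change -0.85 ± 0.16 (SE), adjusted p = 0.00634). The daughter-cell genes DSE2 (-0.46) and DSE3 (-0.63) and the mating-type endonuclease gene HO (-0.96) also fell. MCM5 was not called without Ind_B replicate 1 or Ind_Z replicate 2 or 3. DSE2 was not called without Ind_B replicate 2 or 3 or Ind_Z replicate 2 or 3. DSE3 was not called without Ind_Z replicate 1, 2 or 3. HO was not called without Ind_B replicate 3 or Ind_Z replicate 1, 2 or 3.

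**Figure D2:**
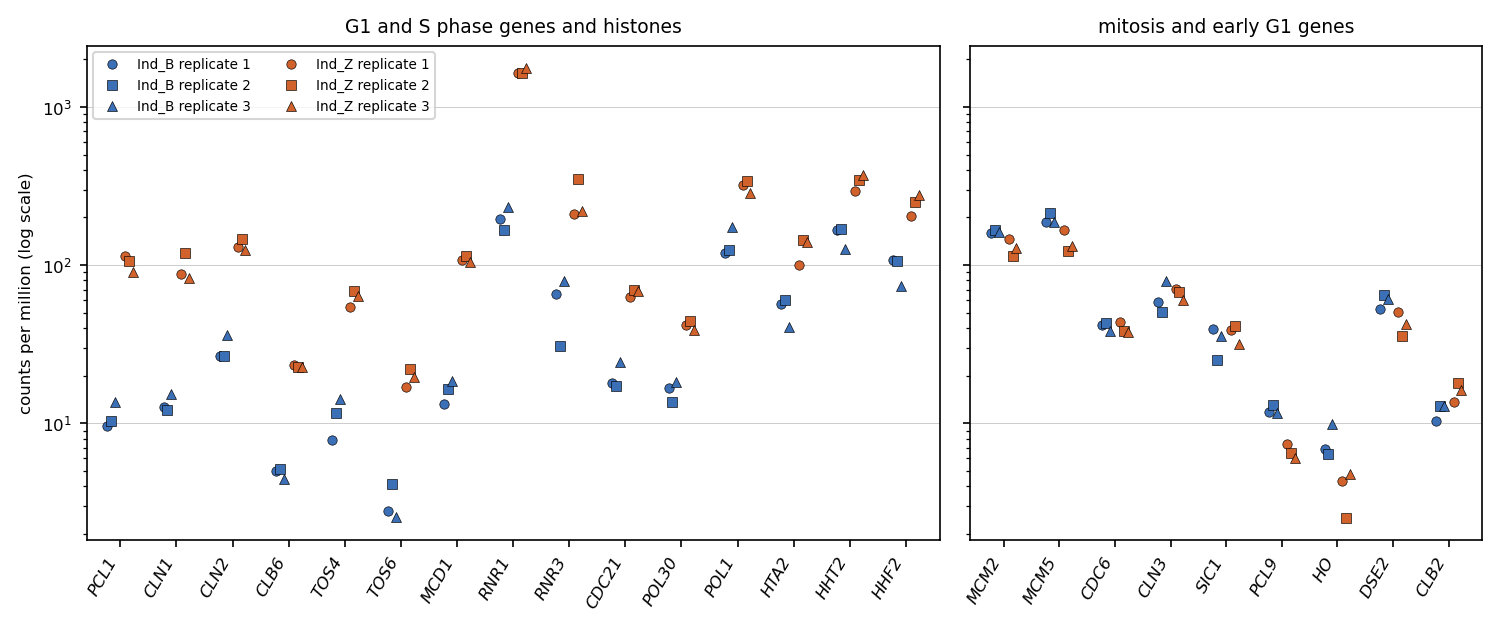
CPM (log axis) of cell cycle genes in each library, blue for Ind_B and orange for Ind_Z, with a marker shape per replicate. The Ind_Z points lie above the Ind_B points for all 15 G1, S phase and histone genes on the left, and RNR1 reaches 1763 CPM. On the right, PCL9, HO, DSE2 and MCM5 are among the genes called lower in Ind_Z.

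Of 11 histone genes 7 were called higher and 0 lower, with a median of 0.82, all 7 encoding core histones, which are made in S phase. HTA1, the other core gene, was not called (0.81, adjusted p = 0.0532). HTA2, one of the H2A genes, was at 57, 60.6 and 40.6 CPM in Ind_B and 101, 145 and 139 CPM in Ind_Z. All Ind_Z libraries exceeded all Ind_B libraries (log2 fold change 1.28 ± 0.18 (SE), adjusted p = 0.00201). HHT2 (log2 fold change 1.12 ± 0.14 (SE), adjusted p = 0.00113) and HHF2 (log2 fold change 1.34 ± 0.17 (SE), adjusted p = 0.00118), encoding H3 and H4, rose by similar amounts, and HHF2 has a near-identical copy whose reads it may share. The variant histone genes HTZ1 (-0.15) and CSE4 (-0.28) and the linker histone gene HHO1 (0.40), were not called. Without Ind_Z replicate 2 the number called was 4. In RNA from whole cultures, more cells in S phase and more of these transcripts per cell cannot be told apart. The same limit holds for the G1 and S phase genes above. For the groups of genes below, a changed mix of cells and a change within cells cannot be told apart either.

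Cytosolic ribosomal protein genes rose almost without exception. Of 79 large subunit genes 78 were called higher and 0 lower, with a median of 1.02, and of 57 small subunit genes 52 were called higher and 0 lower, with a median of 0.97. Ribosomal protein genes held 3.11%, 2.63% and 2.82% of all counts in the Ind_B libraries and 4.67%, 5.17% and 4.91% in the Ind_Z libraries, so the shares did not overlap. RPL9A, encoding a large subunit protein, was at 81.9, 78.3 and 67.1 CPM in Ind_B and 229.5, 329.5 and 306 CPM in Ind_Z. Its lowest Ind_Z library was well above its highest Ind_B library (log2 fold change 1.93 ± 0.15 (SE), adjusted p = 0.000203). RPL31B (1.65) and RPL22A (1.59) followed it among large subunit genes. RPS22A, of the small subunit, was at 119.5, 119 and 95.8 CPM in Ind_B and 283, 355 and 361 CPM in Ind_Z, with the same separation (log2 fold change 1.58 ± 0.14 (SE), adjusted p = 0.000286), ahead of RPS9B (1.38) and RPS24B (1.36), which has a near-identical copy. The weakest gene, RPL15B, was not called (-0.28), and of the small subunit genes RPS9A (0.10), RPS14B (0.19), RPS21A (0.30), RPS27A (0.05) and RPS30A (0.29) were not called. With any 1 library left out, 72 to 78 large and 49 to 54 small subunit genes were called higher.

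Most yeast ribosomal proteins are encoded by a pair of paralogues, named A and B, and the members of a pair did not always move alike. In 52 of the 58 pairs with both genes tested both were called higher, and in 6 pairs 1 was. The median gap between the log2 fold changes of a pair was 0.24, and 15 pairs had a gap of at least 0.5. RPL15A rose (log2 fold change 1.16 ± 0.14 (SE), adjusted p = 0.00103) while RPL15B was at -0.28. RPS9B was at 285, 185 and 232 CPM in Ind_B and 537, 677 and 610.0 CPM in Ind_Z, an increase in every Ind_Z library (log2 fold change 1.38 ± 0.17 (SE), adjusted p = 0.00103), while RPS9A was at 84.5, 68.1 and 81.6 CPM in Ind_B and 90.5, 79.4 and 80.6 CPM in Ind_Z, with overlapping groups (0.10). RPL9A exceeded RPL9B (1.93 against 0.54) and RPS27B exceeded RPS27A (0.86 against 0.05). The gaps within pairs were not tested. Near-identical sequence marked 12 of the 58 pairs, and 14 of the 15 pairs with the larger gap were not among them. RPL9B was not called without Ind_B replicate 1 or Ind_Z replicate 1, 2 or 3.

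Few genes for the factors that build ribosomes were called. Of 105 ribosome biogenesis genes 5 were called higher and 2 lower, with a median of -0.02. NOP58, a core protein of box C/D small nucleolar particles, was at 204, 139.7 and 199.6 CPM in Ind_B and 257, 260.2 and 249 CPM in Ind_Z, higher in each Ind_Z library (log2 fold change 0.49 ± 0.14 (SE), adjusted p = 0.0401). CRF1, a corepressor of ribosomal protein genes, was at 73.7, 85.7 and 70.1 CPM in Ind_B and 52.1, 46.8 and 51.8 CPM in Ind_Z. It was lower in every Ind_Z library (log2 fold change -0.60 ± 0.11 (SE), adjusted p = 0.00589), and RRP15 fell too (-0.51). Of 27 RNA polymerase I and III genes, RPA135 (log2 fold change 0.55 ± 0.11 (SE), adjusted p = 0.0107) and RPA49 (0.35), both of polymerase I, were called higher. Mitochondrial ribosomal proteins had 0 of 73 called higher and 2 lower, RSM22 (-0.51) and MRP51 (-0.28), with a median of -0.15. Ribosome biogenesis had 1 gene called higher without Ind_Z replicate 1 and 0 without Ind_Z replicate 2 or 3, and 4 called lower without Ind_B replicate 3. Without Ind_B replicate 3, 9 mitochondrial ribosomal protein genes were called lower. With upper-quartile factors ribosome biogenesis had 2 genes called higher and 7 lower, and mitochondrial ribosomal proteins 7 lower. NOP58 was not called without Ind_Z replicate 1, 2 or 3. RRP15 was not called without Ind_B replicate 1 or 2 or Ind_Z replicate 1, 2 or 3. RPA135 was not called without Ind_Z replicate 2 or 3. RPA49 was not called without Ind_B replicate 2 or 3 or Ind_Z replicate 1, 2 or 3. MRP51 was not called without Ind_B replicate 1, 2 or 3 or Ind_Z replicate 1, 2 or 3.

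Of 36 translation factor genes 15 were called higher and 0 lower, with a median of 0.30. STM1, a ribosome-binding protein that preserves idle ribosomes, was at 193, 161 and 234 CPM in Ind_B and 444, 524 and 467 CPM in Ind_Z, without overlap (log2 fold change 1.28 ± 0.15 (SE), adjusted p = 0.000858). ANB1, the initiation factor eIF5A form of low oxygen, was at 84.7, 82.2 and 77.6 CPM in Ind_B and 153, 209 and 204 CPM in Ind_Z, and TEF4, an elongation factor subunit, at 296, 243 and 287 CPM in Ind_B and 506, 602 and 556 CPM in Ind_Z. Both were higher in each Ind_Z library (log2 fold change 1.21 ± 0.13 (SE), adjusted p = 0.000677 for ANB1 and log2 fold change 1.01 ± 0.12 (SE), adjusted p = 0.00103 for TEF4), and TEF4 hosts the small nucleolar RNA gene SNR38. The number called fell to 9 without Ind_Z replicate 2. Small nucleolar RNA rows depended on one library: 2 of 46 were called, SNR70 (0.89) and SNR13 (0.88), and 34 without Ind_B replicate 2. Their median log2 CPM, relative to each gene's mean, was -0.69, 0.51 and -0.82 in the Ind_B libraries and 0.30, 0.12 and 0.56 in the Ind_Z libraries. Ind_B replicate 2 thus lay among the Ind_Z libraries for these rows. SNR70 and SNR13 were not called without Ind_B replicate 1 or 3 or Ind_Z replicate 1, 2 or 3.

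**Figure D3:**
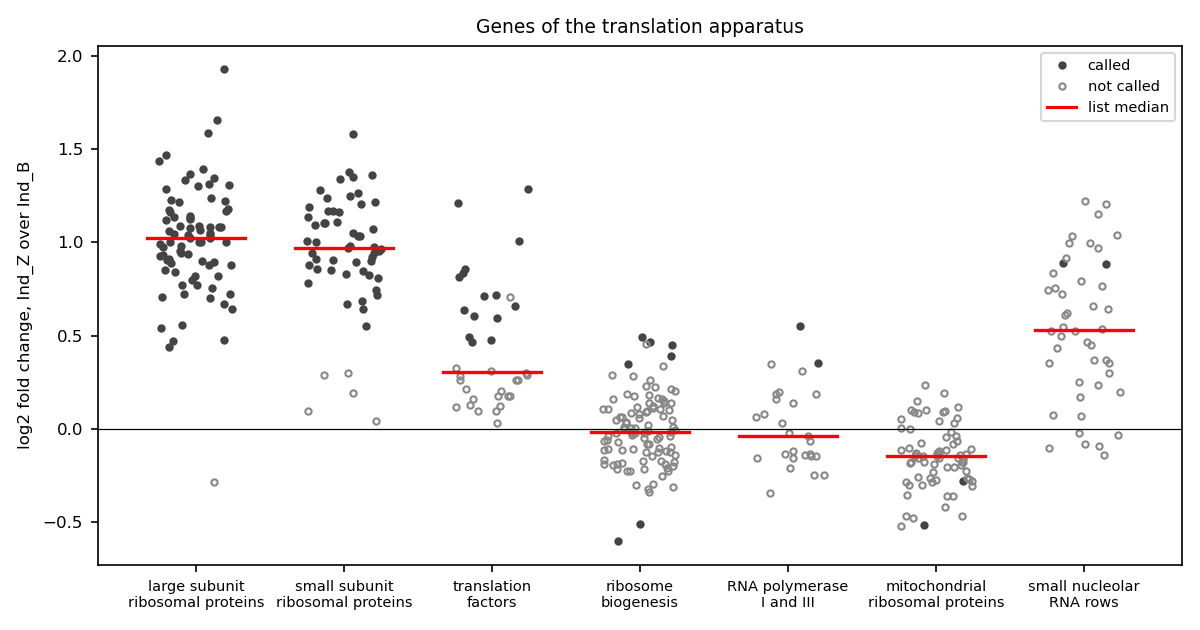
Log2 fold change (Ind_Z over Ind_B) of each tested gene in 7 lists of the translation apparatus; filled points were called, open points were not, and red lines mark list medians. Ribosomal protein genes centre on 1.02 and 0.97, ribosome biogenesis genes on -0.02 and mitochondrial ribosomal protein genes on -0.15.

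Amino acid synthesis rose across most pathways, and most of all in lysine synthesis. Of 67 tested genes outside sulfur amino acids 46 were called higher and 0 lower, with a median of 0.66. All 7 tested genes of the lysine enzymes LYS1, LYS2, LYS4, LYS9, LYS12, LYS20 and LYS21 were called, at log2 fold changes from 1.44 (LYS2) to 2.78 (LYS9), whereas LYS5 (-0.18), which activates Lys2, and the regulator gene LYS14 (0.13) were not. LYS9, a saccharopine dehydrogenase gene, was at 59.4, 141 and 277 CPM in Ind_B and 935, 1218 and 1131 CPM in Ind_Z. The Ind_B libraries differed widely among themselves, yet all were under every Ind_Z library (log2 fold change 2.78 ± 0.45 (SE), adjusted p = 0.0039). LYS12, the homoisocitrate dehydrogenase gene, was at 173, 210.3 and 314 CPM in Ind_B and 809, 956 and 934 CPM in Ind_Z (log2 fold change 1.95 ± 0.21 (SE), adjusted p = 0.000677). LYS20 and LYS21 are near-identical and may share reads.

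Outside lysine, called genes included HIS5 (1.62) and HIS4 (1.00) of histidine synthesis, ARG4 (1.45) and ARG3 (0.84) of arginine synthesis, ARO4 (1.32) and ARO1 (1.03) of the aromatic pathway, and ILV3 (1.31), ILV5 (1.10) and BAT1 (1.31) of the branched-chain pathway. ARG4 was at 74, 68 and 115 CPM in Ind_B and 175, 299 and 232 CPM in Ind_Z, higher in each Ind_Z library (log2 fold change 1.45 ± 0.24 (SE), adjusted p = 0.0039). GCN4, the activator of this pathway set, was at 551, 518 and 598 CPM in Ind_B and 831, 964 and 875 CPM in Ind_Z. Its transcript rose by less than those of the lysine genes (log2 fold change 0.68 ± 0.12 (SE), adjusted p = 0.00485). HIS3 (0.15), TYR1 (-0.02), TRP1 (-0.37) and the catabolic aminotransferase genes ARO9 (-0.29) and BAT2 (-0.28) were not called. A Gcn4 site was present upstream of 35 of the 67 genes, of which 26 were called higher, and 20 of the 32 without one were called higher, with medians of 0.75 and 0.61. With 1 library left out 31 (without Ind_Z replicate 2) to 45 (without Ind_B replicate 2) genes were called higher. ILV5 was not called without Ind_Z replicate 2.

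In purine and one-carbon synthesis 10 of 28 genes were called higher and 0 lower, with a median of 0.26. They were led by ADE3 (log2 fold change 0.99 ± 0.29 (SE), adjusted p = 0.0415), which interconverts folate one-carbon units, and the IMP dehydrogenase genes IMD3 (log2 fold change 0.85 ± 0.14 (SE), adjusted p = 0.00437) and IMD4 (log2 fold change 0.87 ± 0.12 (SE), adjusted p = 0.00168). IMD4 was at 349.8, 306 and 302 CPM in Ind_B and 521, 618 and 614 CPM in Ind_Z, without overlap, and hosts a small nucleolar RNA gene. The first enzyme of the pathway, ADE4, was not called (-0.04). Without any one Ind_Z library 6 genes were called. ADE3 was not called without Ind_B replicate 1 or Ind_Z replicate 1, 2 or 3.

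Genes for taking up and using alternative sulfur and nitrogen sources made up several of the largest falls. JLP1, a dioxygenase that releases sulfite from sulfonates, was at 44.4, 42.8 and 48.5 CPM in Ind_B and 15.3, 13.9 and 19.2 CPM in Ind_Z. Every Ind_Z library was far under every Ind_B library (log2 fold change -1.48 ± 0.14 (SE), adjusted p = 0.000503), and among called genes DAL80 and GAT4 (-1.65), both at low counts, fell further. YCT1, a cysteine transporter gene, was at 313, 414 and 220.5 CPM in Ind_B and 92.8, 148 and 139 CPM in Ind_Z (log2 fold change -1.32 ± 0.24 (SE), adjusted p = 0.00589). PDC6, a pyruvate decarboxylase isozyme low in sulfur amino acids, was at 179.8, 195 and 292 CPM in Ind_B and 111, 116 and 92.5 CPM in Ind_Z. Its groups did not overlap (log2 fold change -1.06 ± 0.18 (SE), adjusted p = 0.00485). The sulfate permease gene SUL1 fell (log2 fold change -0.78 ± 0.15 (SE), adjusted p = 0.00748), and SUL2 was not called (0.09). JLP1 and YCT1 are neighbours on chromosome XII with YLL056C between them, which fell by less (log2 fold change -0.37 ± 0.11 (SE), adjusted p = 0.0389), and the next gene, HSU1, was not called (-0.27). In the whole sulfate assimilation and methionine list 5 of 36 genes were called higher and 3 lower, shares near those of all genes. HOM2 (log2 fold change 1.15 ± 0.13 (SE), adjusted p = 0.00087) and HOM3 (log2 fold change 0.84 ± 0.17 (SE), adjusted p = 0.00885), which make the shared precursor of threonine and methionine, were the largest rises there. Leaving out Ind_Z replicate 1 gave 8 higher calls in that list, and leaving out Ind_Z replicate 2 or 3 gave 2. Upper-quartile factors gave 5 higher and 6 lower there. YLL056C was not called without Ind_B replicate 1 or Ind_Z replicate 1, 2 or 3.

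In the list for use of allantoin, urea and proline 0 of 24 genes were called higher and 8 lower, with a median of -0.21. DAL3, which breaks down ureidoglycolate, was at 12.4, 18.4 and 10.7 CPM in Ind_B and 4.33, 4.51 and 6.81 CPM in Ind_Z, the Ind_Z libraries all lower (log2 fold change -1.39 ± 0.26 (SE), adjusted p = 0.00705). DAL1 (-0.85), DAL2 (-0.71), DAL4 (-0.89) and DAL7 (-0.75), enzymes and the permease of allantoin use, lie beside DAL3 in one cluster on chromosome IX and were all called lower. DCG1, a gene inside that cluster, was not called (-0.30). DAL80, the GATA repressor gene, was at 1.07, 1.42 and 1.61 CPM in Ind_B and 0.355, 0.722 and 0.223 CPM in Ind_Z, a low level with a mean of 12.3 counts per library (log2 fold change -1.81 ± 0.41 (SE), adjusted p = 0.016). DAL5 (-0.56), an allantoate permease gene, was called lower, and the urea genes DUR12 (-0.08) and DUR3 (-0.20), the proline genes PUT1 (0.39) and PUT2 (-0.12) and the GATA activator genes GLN3 (-0.28) and GAT1 (0.51) were not. A GATA site was present upstream of 12 of the 24 genes, 5 of which were called lower, and 3 of the 12 without one were, with medians of -0.36 and -0.16. The number called lower was 5 without Ind_Z replicate 3, and 2 genes of the list were called higher without Ind_Z replicate 1. DAL2 was not called without Ind_Z replicate 2 or 3. DAL80 was not called without Ind_Z replicate 1 or 3.

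Permeases for amino acids, peptides and ammonium showed falls and 0 rises, 5 of 29 being called lower. PTR2, the peptide transporter gene, was at 295, 192.1 and 259.9 CPM in Ind_B and 122.8, 145.2 and 119.1 CPM in Ind_Z. The Ind_Z libraries were all lower (log2 fold change -0.95 ± 0.16 (SE), adjusted p = 0.00427). GAP1, the general amino acid permease gene, was at 199, 178 and 179 CPM in Ind_B and 89.1, 148 and 71.3 CPM in Ind_Z; Ind_Z replicate 2 lay between the rest of its group and Ind_B (log2 fold change -0.86 ± 0.23 (SE), adjusted p = 0.0283). UGA4, for gamma-aminobutyrate (-0.68), TAT1, for tyrosine and valine (-0.59), and SSY1, the external amino acid sensor gene (-0.47), also fell. The ammonium permease gene MEP2 was not called (-0.47). Without Ind_Z replicate 3, 3 permease genes were called lower. VBA2, a vacuolar permease gene for basic amino acids, fell as well, from 54.5 ± 9.16 CPM in Ind_B to 24.7 ± 2.83 CPM in Ind_Z (SD, n = 3; log2 fold change -1.14 ± 0.15, adjusted p = 0.00141). GAP1 was not called without Ind_B replicate 1 or Ind_Z replicate 1 or 3. SSY1 was not called without Ind_Z replicate 2 or 3.

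**Figure D4:**
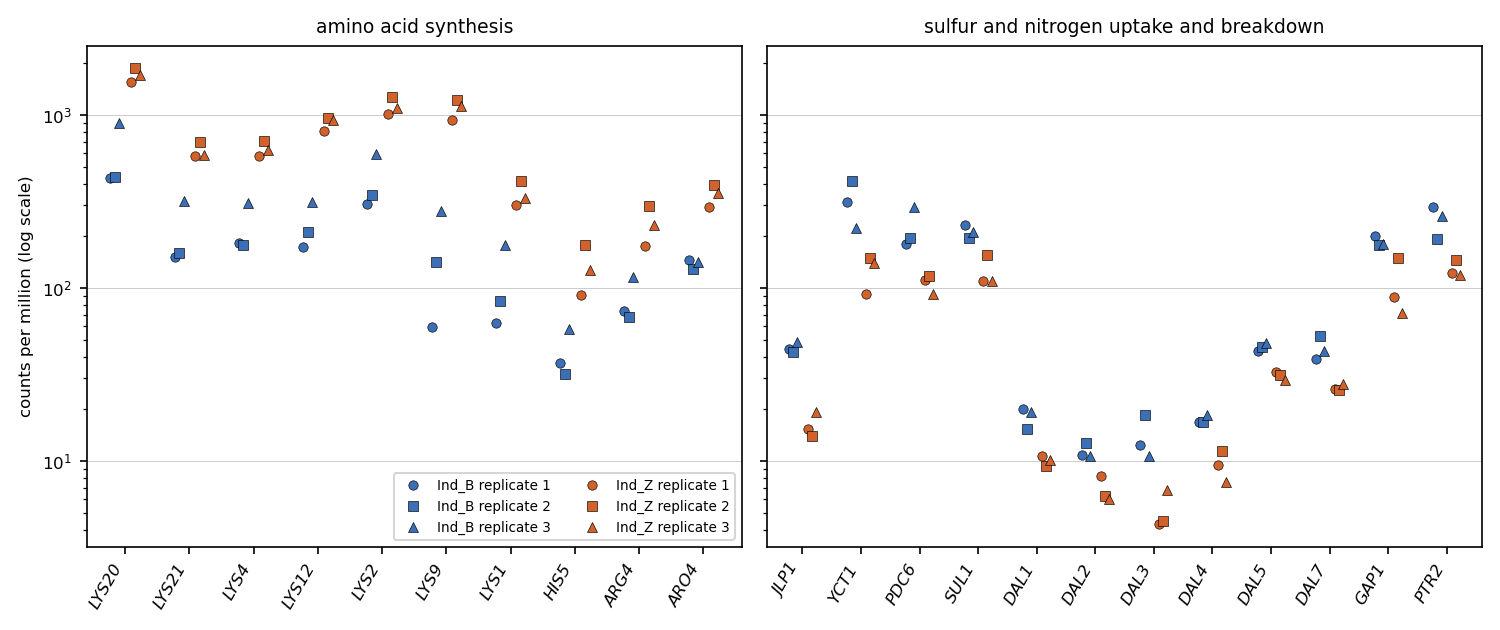
CPM (log axis) in each library of 10 amino acid synthesis genes (left) and 12 genes for sulfur and nitrogen uptake and breakdown (right), blue for Ind_B and orange for Ind_Z. The left panel has Ind_Z above Ind_B throughout and the right panel has Ind_Z below Ind_B throughout; LYS9 spans 59.4 to 277 CPM within Ind_B.

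In the list of cell wall mannoproteins 14 of 26 were called higher and 0 lower, with a median of 0.80. CWP2, a major mannoprotein, was at 69.9, 38.8 and 42.7 CPM in Ind_B and 237, 308 and 244 CPM in Ind_Z. Each Ind_Z value was over 3 times each Ind_B value (log2 fold change 2.38 ± 0.22 (SE), adjusted p = 0.00044). PIR3, a cell wall protein linked to glucan, was at 61.2, 35.8 and 90.3 CPM in Ind_B and 278, 309.8 and 292 CPM in Ind_Z (log2 fold change 2.22 ± 0.27 (SE), adjusted p = 0.00107), and CCW12, an abundant mannoprotein of growing buds, at 242, 148 and 182 CPM in Ind_B and 610.3, 771 and 708 CPM in Ind_Z (log2 fold change 1.87 ± 0.18 (SE), adjusted p = 0.000627). TIR1, of the cold- and oxygen-regulated mannoproteins, was at 63.4, 29.3 and 73 CPM in Ind_B and 152, 247 and 189 CPM in Ind_Z, without overlap (log2 fold change 1.81 ± 0.30 (SE), adjusted p = 0.00413). TIR3 was called (0.94), and TIR2 (0.27) and TIR4 (-0.0002) were not. The mannoprotein gene CIS3 (1.78), SED1 (1.28), a stress-induced wall protein gene, and ECM33 (0.78) were also called. TIR3 was not called without Ind_B replicate 1 or 2 or Ind_Z replicate 1, 2 or 3.

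Among 32 genes that make and remodel glucan and chitin, 13 were called higher and 3 lower. CRH1, which links chitin to glucan, was at 81.9, 66.2 and 103 CPM in Ind_B and 237, 253 and 223 CPM in Ind_Z, far apart between groups (log2 fold change 1.5027 ± 0.15 (SE), adjusted p = 0.000627). The glucanase-family genes SCW4 (log2 fold change 1.24 ± 0.23 (SE), adjusted p = 0.00675) and EXG1 (log2 fold change 0.84 ± 0.15 (SE), adjusted p = 0.00589) and the glucan synthase gene FKS1 (0.71) rose. The alternative synthase gene GSC2 was not called (0.45). The genes that fell were DSE2, DSE3 and GAS4 (-0.73), a glucan remodelling gene of spores. In cell wall integrity signalling 1 of 21 genes was called, the sensor gene MID2 (log2 fold change 0.51 ± 0.12 (SE), adjusted p = 0.0196), and the kinase gene SLT2 was at 0.11 without a call. Seripauperins and flocculins had 0 calls by edgeR, DESeq2 or limma-voom among 9 and 16 tested genes, and 1 and 2 genes with an unadjusted edgeR p under 0.05, led by PAU20 (-0.47) and MGA1 (0.45). Seripauperin genes have near-identical copies that may share reads. Without Ind_Z replicate 2 or 3 the glucan and chitin list had 7 genes called higher. FKS1 was not called without Ind_Z replicate 3. MID2 was not called without Ind_Z replicate 2 or 3.

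At the plasma membrane, PMA1, the proton pump that holds the cell's membrane potential, was at 1690, 1737 and 1495 CPM in Ind_B and 3607, 3576 and 3667 CPM in Ind_Z. It was higher in every Ind_Z library, with very little spread there (log2 fold change 1.14 ± 0.13 (SE), adjusted p = 0.00083). HSP30, a membrane protein that lowers the pump's activity in stress, was at 1848, 2253 and 1233 CPM in Ind_B and 3138, 4484 and 5361 CPM in Ind_Z (log2 fold change 1.28 ± 0.26 (SE), adjusted p = 0.00906). Per kilobase of gene, the level of PMA1 was 595 in Ind_B and 1310 in Ind_Z and that of HSP30 1780 in Ind_B and 4330 in Ind_Z (group means of CPM per kilobase). The eisosome, a furrow in the membrane, had 5 of 14 genes called higher and 1 lower. The list's median was -0.03, with 6 fold changes positive and 8 negative. NCE102, a membrane sensor of sphingolipids there, was at 94.2, 64 and 67.3 CPM in Ind_B and 133, 199 and 221 CPM in Ind_Z, and YNL194C, a relative of SUR7, at 16.6, 17.1 and 14.2 CPM in Ind_B and 24.9, 40.3 and 44.1 CPM in Ind_Z. In both genes the groups were apart (log2 fold change 1.29 ± 0.21 (SE), adjusted p = 0.00359 for NCE102, log2 fold change 1.18 ± 0.21 (SE), adjusted p = 0.00532 for YNL194C). The core eisosome genes PIL1 (0.88) and LSP1 (0.54) rose and SUR7 was not called (-0.17). Without Ind_Z replicate 2 or 3, 3 eisosome genes were called higher. LSP1 was not called without Ind_B replicate 1 or 2 or Ind_Z replicate 2 or 3.

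Of 19 genes of fatty acid synthesis and elongation 11 were called higher and 0 lower, with a median of 0.48. ELO3, which makes very long acyl chains, was at 127, 119 and 109 CPM in Ind_B and 214, 265 and 246 CPM in Ind_Z, apart between groups (log2 fold change 1.03 ± 0.11 (SE), adjusted p = 0.00073). Its partner ELO2 (log2 fold change 0.97 ± 0.12 (SE), adjusted p = 0.00113), the fatty acid synthase genes FAS1 (log2 fold change 0.90 ± 0.13 (SE), adjusted p = 0.0019) and FAS2 (0.70) and the desaturase gene OLE1 (0.65) were called too. In sphingolipid synthesis 7 of 26 genes were called higher and 1 lower, among them the ceramide synthase gene LAC1 (log2 fold change 1.01 ± 0.11 (SE), adjusted p = 0.000813), SUR1 (0.88), of mannosylated sphingolipids, and ORM2 (0.70), an inhibitor of the first step. LAC1 was at 107, 119.9 and 104 CPM in Ind_B and 194, 237 and 235 CPM in Ind_Z. Of 29 inositol and phospholipid genes 7 were called higher and 1 lower, with a median of 0.04 and 14 negative fold changes. The inositol transporter gene ITR1 (0.62) and the methyltransferase gene OPI3 (0.57) led the rises, and GIT1 (-0.54), which imports glycerophosphoinositol, was lower. The fatty acid count was 6 without Ind_Z replicate 1 and 5 without Ind_Z replicate 2 or 3. The sphingolipid count was 3 without Ind_Z replicate 2 and 4 without Ind_Z replicate 3, and the phospholipid count was 2 without any one Ind_Z library, 4 without Ind_B replicate 2 and 3 without Ind_B replicate 3. Upper-quartile factors called 2 phospholipid genes higher and 4 lower. FAS2 was not called without Ind_Z replicate 2 or 3. OLE1 was not called without Ind_B replicate 3 or Ind_Z replicate 2 or 3. GIT1 was not called without Ind_Z replicate 3.

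Of 27 ergosterol genes 11 were called higher and 0 lower, with a median of 0.39. The median was 0.34 to 0.45 with 1 library left out, and 26 of the 27 fold changes were positive. The number called varied widely with the library left out. It was 1 without Ind_Z replicate 2 or 3, 3 without Ind_Z replicate 1, 4 without Ind_B replicate 1, 8 without Ind_B replicate 2 and 13 without Ind_B replicate 3. NCP1, the reductase that feeds the pathway's cytochrome enzymes, was at 178, 87 and 204 CPM in Ind_B and 279, 321 and 301 CPM in Ind_Z, with Ind_B replicate 2 lowest (log2 fold change 0.94 ± 0.26 (SE), adjusted p = 0.0326). ERG25 (log2 fold change 0.73 ± 0.19 (SE), adjusted p = 0.025) and ERG13 (log2 fold change 0.57 ± 0.17 (SE), adjusted p = 0.0414) were the other named rises. HES1, an oxysterol-binding protein gene, was at 17, 24.1 and 20 CPM in Ind_B and 11.6, 9.03 and 9.71 CPM in Ind_Z. It went the other way, all Ind_Z libraries being lower (log2 fold change -0.98 ± 0.18 (SE), adjusted p = 0.00556), while its relative KES1 rose (0.44). HEM13, the oxygen-dependent haem synthesis gene, rose (log2 fold change 0.77 ± 0.12 (SE), adjusted p = 0.00343). NCP1 and ERG25 were not called without Ind_B replicate 1 or Ind_Z replicate 1, 2 or 3. ERG13 was not called without Ind_B replicate 1 or 2 or Ind_Z replicate 1, 2 or 3. KES1 was not called without Ind_Z replicate 2 or 3.

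Lists for sugar uptake and sensing had shares called near those of all genes (13.1% higher and 7.4% lower). Of 13 hexose transporter genes 2 were called higher (15.4%) and 1 lower (7.69%). Of 22 genes for glucose sensing and repression 3 were called higher (13.6%) and 2 lower (9.09%). HXT1, the low-affinity transporter induced by high glucose, was at 105, 52.1 and 56.4 CPM in Ind_B and 151, 442 and 319.6 CPM in Ind_Z. The Ind_Z libraries spread widely but all exceeded Ind_B (log2 fold change 2.09 ± 0.39 (SE), adjusted p = 0.0064). HXT5 rose (0.63), HXT10 fell (-0.98) and the other tested transporters of 13 were not called, HXT2 (0.81) and HXT3 (0.19) among them. HXK1 was at 254, 296 and 292 CPM in Ind_B and 791, 920.1 and 1282 CPM in Ind_Z and HXK2 at 106, 129 and 128 CPM in Ind_B and 247, 340.5 and 317 CPM in Ind_Z. These hexokinase genes, of which HXK2 is the form of high glucose and HXK1 that of low glucose, rose together (log2 fold change 1.83 ± 0.18 (SE), adjusted p = 0.000627 for HXK1, log2 fold change 1.32 ± 0.14 (SE), adjusted p = 0.000707 for HXK2). Of the glucose sensors, RGT2 (-0.35) and SNF3 (-0.33) fell slightly, and MTH1, a corepressor of transporter genes, rose (0.59). Sucrose and maltose genes had 0 calls by edgeR, DESeq2 or limma-voom among 10 genes and 1 at an unadjusted edgeR p under 0.05, MAL13 (-0.27). The invertase gene SUC2 was at 0.40. HXT5 was not called without Ind_B replicate 1 or 3 or Ind_Z replicate 3. HXT10 was not called without Ind_B replicate 1 or 3 or Ind_Z replicate 1 or 3. RGT2 was not called without Ind_B replicate 1 or Ind_Z replicate 1, 2 or 3. SNF3 was not called without Ind_B replicate 2 or 3 or Ind_Z replicate 1, 2 or 3. MTH1 was not called without Ind_B replicate 1 or 2 or Ind_Z replicate 2 or 3.

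In glycolysis 10 of 17 genes were called higher and 0 lower, with a median of 0.56. TDH2, one of the glyceraldehyde-3-phosphate dehydrogenase genes, was at 751, 747 and 967 CPM in Ind_B and 2584, 3225 and 2870 CPM in Ind_Z, clearly separated (log2 fold change 1.82 ± 0.16 (SE), adjusted p = 0.000286). It has a near-identical copy in TDH3, which changed less (log2 fold change 0.56 ± 0.12 (SE), adjusted p = 0.0107), and TDH1 was not called (0.12). ENO2 (1.28) and the pyruvate kinase gene CDC19 (0.76) rose, while ENO1 (0.41), PGK1 (0.22) and PYK2 (-0.18) were not called. PDC5, a pyruvate decarboxylase gene, was at 99.56, 92.42 and 122.7 CPM in Ind_B and 191.5, 332.6 and 240.7 CPM in Ind_Z (log2 fold change 1.28 ± 0.20 (SE), adjusted p = 0.00295), and the larger estimate for PDC1 came with wide spread and no call (1.32, adjusted p = 0.0781). ACS2, the acetyl-CoA synthetase gene of glucose-grown cells, rose (log2 fold change 1.08 ± 0.22 (SE), adjusted p = 0.0106), as did ALD5 (0.87), and ALD3 fell (-0.69). GND1, of the pentose phosphate pathway, was at 391, 423 and 491 CPM in Ind_B and 924, 1232 and 1124 CPM in Ind_Z, without overlap (log2 fold change 1.33 ± 0.15 (SE), adjusted p = 0.00077). Without Ind_Z replicate 2 or 3, 4 glycolysis genes were called higher. TDH3 and ENO2 were not called without Ind_Z replicate 2 or 3. ACS2 was not called without Ind_Z replicate 2. ALD5 was not called without Ind_B replicate 1 or Ind_Z replicate 2. ALD3 was not called without Ind_Z replicate 1 or 2.

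Of 11 glycerol genes 7 were called higher and 0 lower, with a median of 0.51. GPD1, which makes glycerol-3-phosphate and responds to osmotic stress, was at 287, 156 and 183 CPM in Ind_B and 441, 652 and 547 CPM in Ind_Z, with Ind_Z higher throughout (log2 fold change 1.39 ± 0.23 (SE), adjusted p = 0.00413). Its isozyme GPD2 (log2 fold change 0.85 ± 0.10 (SE), adjusted p = 0.00103) and the phosphatases GPP1 (log2 fold change 1.04 ± 0.18 (SE), adjusted p = 0.00517) and GPP2 (log2 fold change 0.88 ± 0.17 (SE), adjusted p = 0.00837) were called too, and the glycerol channel gene FPS1 was not (0.26). The count was 4 without Ind_Z replicate 3. In the tricarboxylic acid cycle 8 of 18 genes were called higher and 0 lower (median 0.39), with IDP1 (0.75) and MDH1 (0.63) among them; the count was 5, 3 and 4 without Ind_Z replicates 1, 2 and 3. Respiratory chain and ATP synthase genes had 1 of 38 called, QCR8 (0.49), and the 7 mitochondrially encoded genes had 0 calls by edgeR or limma-voom, 1 by DESeq2 and 1 at an unadjusted edgeR p under 0.05, VAR1 (0.79). In the mitochondrial chaperone and import list 2 of 20 were called higher, HSP60 (0.42) and HSP78 (0.38). In the gluconeogenesis and glyoxylate list 1 of 18 was called higher, CYB2 (0.66), and 1 lower, SFC1 (-0.71). MDH1 was not called without Ind_Z replicate 2. QCR8 was not called without Ind_B replicate 2 or 3 or Ind_Z replicate 1, 2 or 3. HSP60 and SFC1 were not called without Ind_B replicate 1 or 2 or Ind_Z replicate 1, 2 or 3. HSP78 was not called without Ind_B replicate 1 or 3 or Ind_Z replicate 1, 2 or 3. CYB2 was not called without Ind_B replicate 1 or Ind_Z replicate 2 or 3.

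In the general stress list 20 of 42 genes were called higher and 1 lower, with a median of 0.48. DDR2, induced by DNA damage and many stresses, was at 5.97, 5.57 and 3.99 CPM in Ind_B and 22.1, 28.7 and 46 CPM in Ind_Z. The lowest Ind_Z library was over 3 times the highest Ind_B library (log2 fold change 2.66 ± 0.29 (SE), adjusted p = 0.00073). TMA10, a ribosome-associated protein gene, was at 112, 159 and 81.5 CPM in Ind_B and 432, 492 and 737 CPM in Ind_Z (log2 fold change 2.24 ± 0.27 (SE), adjusted p = 0.00103). HSP12, a membrane-stabilising protein, was at 1.21, 1.62 and 1.14 CPM in Ind_B and 3.34, 8.3 and 6.25 CPM in Ind_Z, a low level in both groups (log2 fold change 2.12 ± 0.36 (SE), adjusted p = 0.0044). The catalase gene CTT1 (0.44), the ubiquitin gene UBI4 (0.0026), DDR48 (0.28) and the factor genes MSN2 (-0.08) and MSN4 (-0.31) were not called, and ALD3 was the 1 that fell. Of the 24 genes with a stress response element upstream 13 were called higher, and of the 18 without one 7, with medians of 0.51 and 0.20. The count was 12 without Ind_Z replicate 3, and the library medians of the list in Ind_Z were 0.10, 0.19 and 0.44.

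Storage carbohydrate genes moved in part with them: 8 of 25 trehalose and glycogen genes were called higher and 3 lower. GPH1, glycogen phosphorylase, was at 132, 182 and 182 CPM in Ind_B and 289.8, 349 and 436 CPM in Ind_Z (log2 fold change 1.12 ± 0.18 (SE), adjusted p = 0.00333). The synthase gene GSY2 (0.96), PGM2 (1.01) and the trehalose genes TPS1 (0.49), TPS2 (0.59) and TSL1 (0.81) rose, and the trehalase genes ATH1 (-0.38) and NTH2 (-0.41) and the phosphatase subunit gene PIG1 (-0.83) fell. In the osmotic stress list 8 of 29 were called higher and 1 lower, with a median of 0.07 and 10 negative fold changes. RTC3 rose most, at 14.7, 17.9 and 10.3 CPM in Ind_B and 35.7, 54.5 and 72 CPM in Ind_Z (log2 fold change 1.93 ± 0.27 (SE), adjusted p = 0.00202). HOG1, the kinase of the pathway, was at 0.07 without a call. Leaving out Ind_Z replicate 3 gave 5 and 4 genes called higher in these lists, and leaving out Ind_Z replicate 2 gave 5 in the osmotic list. One trehalose and glycogen gene was called lower without any one Ind_Z library. TPS1 and TSL1 were not called without Ind_Z replicate 2 or 3. TPS2 was not called without Ind_Z replicate 3. ATH1 was not called without Ind_B replicate 2 or 3 or Ind_Z replicate 1, 2 or 3. NTH2 was not called without Ind_B replicate 2 or Ind_Z replicate 1, 2 or 3.

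Of 34 heat shock and folding genes 16 were called higher and 0 lower, with a median of 0.41. BTN2, which sorts misfolded proteins, was at 342, 341 and 292 CPM in Ind_B and 562, 722 and 707 CPM in Ind_Z, with no overlap (log2 fold change 1.03 ± 0.13 (SE), adjusted p = 0.00132). The ribosome-bound chaperone genes SSB1 (log2 fold change 0.92 ± 0.14 (SE), adjusted p = 0.00264) and SSB2 (log2 fold change 0.86 ± 0.13 (SE), adjusted p = 0.00245), near-identical copies, rose, as did HSP104 (0.52), the disaggregase gene, and SSA4 (0.58), while HSP82 (0.40), YDJ1 (0.30) and HSF1 (-0.07), the regulator gene, were not called. Of 28 endoplasmic reticulum genes 12 were called higher and 0 lower, with a median of 0.34. KAR2, the lumenal chaperone, was at 1676, 1409 and 1855 CPM in Ind_B and 3081, 3326 and 3517 CPM in Ind_Z, without overlap (log2 fold change 1.01 ± 0.15 (SE), adjusted p = 0.00226). PDI1 (log2 fold change 1.01 ± 0.27 (SE), adjusted p = 0.0317) and the translocon gene SEC61 (log2 fold change 1.16 ± 0.30 (SE), adjusted p = 0.0257) were lowest in Ind_B replicate 2, at 365 and 29.5 CPM. HAC1 (0.02) and IRE1 (-0.10), the factor and sensor of the unfolded protein response, and the degradation genes HRD1 (0.04) and DER1 (-0.05) were not called. Without Ind_Z replicates 1, 2 and 3 the counts were 10, 7 and 4 for cytosolic genes and 7, 6 and 6 for genes of the endoplasmic reticulum. HSP104 was not called without Ind_Z replicate 2 or 3. SSA4 was not called without Ind_B replicate 1 or Ind_Z replicate 1 or 3. PDI1 was not called without Ind_B replicate 1 or Ind_Z replicate 1, 2 or 3. SEC61 was not called without Ind_Z replicate 1, 2 or 3.

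Other stress and transport lists held at most 8 called genes each, where 13.1% of all genes were called higher and 7.4% lower. The shares called higher were 9.52% for oxidative stress, 16% for multidrug resistance, 25% for weak acid and 2.5% for proteasome genes. They were 9.09% for zinc and copper, 7.41% for phosphate and 10% for thiamine genes. Shares called lower, in the same order, were 9.52%, 8%, 5%, 2.5%, 0%, 3.7% and 15%. In the oxidative stress list 4 of 42 were called higher, with the peroxiredoxin genes TSA1 (log2 fold change 0.90 ± 0.13 (SE), adjusted p = 0.00203) and AHP1 (0.72) after GND1, and 4 lower, with AAD4 (log2 fold change -0.86 ± 0.13 (SE), adjusted p = 0.0023) first. Multidrug resistance genes had 4 of 25 called higher and 2 lower, RSB1 (0.57) and PDR16 (0.46) among the rises, and the main pump gene PDR5 was not called (-0.13). The weak acid list had 5 of 20 called higher, HSP30, SPI1 (log2 fold change 1.05 ± 0.22 (SE), adjusted p = 0.012), YRO2 (0.50) and the polyamine exporter genes TPO2 and TPO3 (0.67), near-identical copies, and 1 lower. The weak acid exporter gene PDR12 was at 0.16 without a call. The proteasome list had 1 of 40 called in each direction, the activator gene RPN4 (0.40) and ECM29 (-0.42). In the zinc and copper list 2 of 22 were called higher, MCD4 (0.74) and ADH4 (0.37), in the phosphate list 2 of 27, PHO3 (0.62) and PHO8 (0.50), with GIT1 lower, and in the thiamine list 2 of 20 were called higher and 3 lower, PET18 (-0.65) and THI22 (-0.63) among the falls. RSB1 was not called without Ind_B replicate 1 or 3 or Ind_Z replicate 2 or 3. PDR16 was not called without Ind_Z replicate 2 or 3. YRO2 and RPN4 were not called without Ind_B replicate 1 or 3 or Ind_Z replicate 1, 2 or 3. TPO3, ADH4 and PET18 were not called without Ind_Z replicate 1, 2 or 3. ECM29 was not called without Ind_B replicate 3 or Ind_Z replicate 1, 2 or 3. PHO3 was not called without Ind_B replicate 1 or 2 or Ind_Z replicate 2 or 3.

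Lists for mating, meiosis, iron uptake and autophagy held more genes called lower than higher, in counts that depended on which libraries were used. In the mating and haploid-specific list 13 of 32 were called lower and 1, FAR1 (log2 fold change 0.69 ± 0.13 (SE), adjusted p = 0.00591), the inhibitor of G1 cyclin kinases, higher, with a median of -0.34. STE2, the alpha-factor receptor gene, was at 22.4, 27.4 and 19.1 CPM in Ind_B and 15.1, 10.5 and 9.82 CPM in Ind_Z, and all Ind_Z libraries were below Ind_B (log2 fold change -0.92 ± 0.20 (SE), adjusted p = 0.0143). The G protein genes GPA1 (log2 fold change -0.82 ± 0.19 (SE), adjusted p = 0.0157) and STE4 (-0.74) and the scaffold gene STE5 (-0.68) fell, and the kinase gene FUS3 (-0.15) and the factor gene STE12 (-0.13) were not called. In the meiosis list 0 of 47 were called higher and 10 lower, with a median of -0.33. REC114, needed to start recombination, was at 9.81, 17.2 and 12.3 CPM in Ind_B and 6.39, 6.68 and 6.36 CPM in Ind_Z (log2 fold change -1.01 ± 0.22 (SE), adjusted p = 0.0139), and REC102, its partner, at 9.24, 10.1 and 7.97 CPM in Ind_B and 4.62, 3.61 and 5.47 CPM in Ind_Z (log2 fold change -0.96 ± 0.20 (SE), adjusted p = 0.00979). The groups of both genes were apart, at low levels. SPS2 (-0.79), of the spore wall, and NDT80, the factor of middle sporulation (-0.48), fell, and IME2 (-0.08) and UME6 (-0.05) were not called. Without Ind_Z replicates 1, 2 and 3 the counts of lower genes were 5, 2 and 3 for mating and 4, 4 and 2 for meiosis. STE2 and STE4 were not called without Ind_Z replicate 2 or 3. GPA1 was not called without Ind_Z replicate 1 or 2. REC114 was not called without Ind_Z replicate 1 or 3. SPS2 was not called without Ind_Z replicate 3. NDT80 was not called without Ind_B replicate 1 or 3 or Ind_Z replicate 1, 2 or 3.

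In the iron list 10 of 32 were called lower and 2 higher, with a median of -0.26. ENB1, the enterobactin transporter gene, was at 12.02, 12.36 and 12.15 CPM in Ind_B and 7.033, 7.222 and 8.036 CPM in Ind_Z, with tight and separate groups (log2 fold change -0.71 ± 0.15 (SE), adjusted p = 0.00971). ARN2 (-0.52), ARN1 (-0.42), the reductase gene FRE1 (-0.51), the ferroxidase gene FET3 (-0.34) and the haem oxygenase gene HMX1 (-0.50) fell, and the regulator gene AFT1 was not called (-0.12). The 2 rises were LEU1 (0.56) and ISU1 (0.45), an iron-sulfur enzyme of leucine synthesis and an iron-sulfur scaffold. In the autophagy list 11 of 43 were called lower and 3 higher, with a median of -0.21. ATG16 (log2 fold change -0.98 ± 0.23 (SE), adjusted p = 0.0178) and ATG4 (log2 fold change -0.59 ± 0.16 (SE), adjusted p = 0.0293), of the machinery that lipidates Atg8, were the largest falls. ATG8 itself was at 61.2, 78.7 and 51.1 CPM in Ind_B and 43.4, 37.7 and 47.3 CPM in Ind_Z, lower in Ind_Z without overlap (log2 fold change -0.56 ± 0.16 (SE), adjusted p = 0.04). The rises were vacuolar or sorting genes, CPS1 (0.69), APE3 (0.48) and ATG27 (0.44). Without Ind_Z replicate 2 or 3 the lower counts were 2 in the iron list and 1 in the autophagy list, without Ind_Z replicate 1 they were 4 and 3, and without Ind_B replicate 1 they were 4 and 6. ARN2 was not called without Ind_B replicate 3 or Ind_Z replicate 1, 2 or 3. ARN1, FET3, HMX1, LEU1 and ATG4 were not called without Ind_B replicate 1 or Ind_Z replicate 1, 2 or 3. FRE1, ISU1 and ATG27 were not called without Ind_Z replicate 2 or 3. ATG16 was not called without Ind_Z replicate 1, 2 or 3. ATG8 was not called without Ind_B replicate 1 or 2 or Ind_Z replicate 1, 2 or 3. CPS1 and APE3 were not called without Ind_B replicate 1 or Ind_Z replicate 2 or 3.

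**Figure D5:**
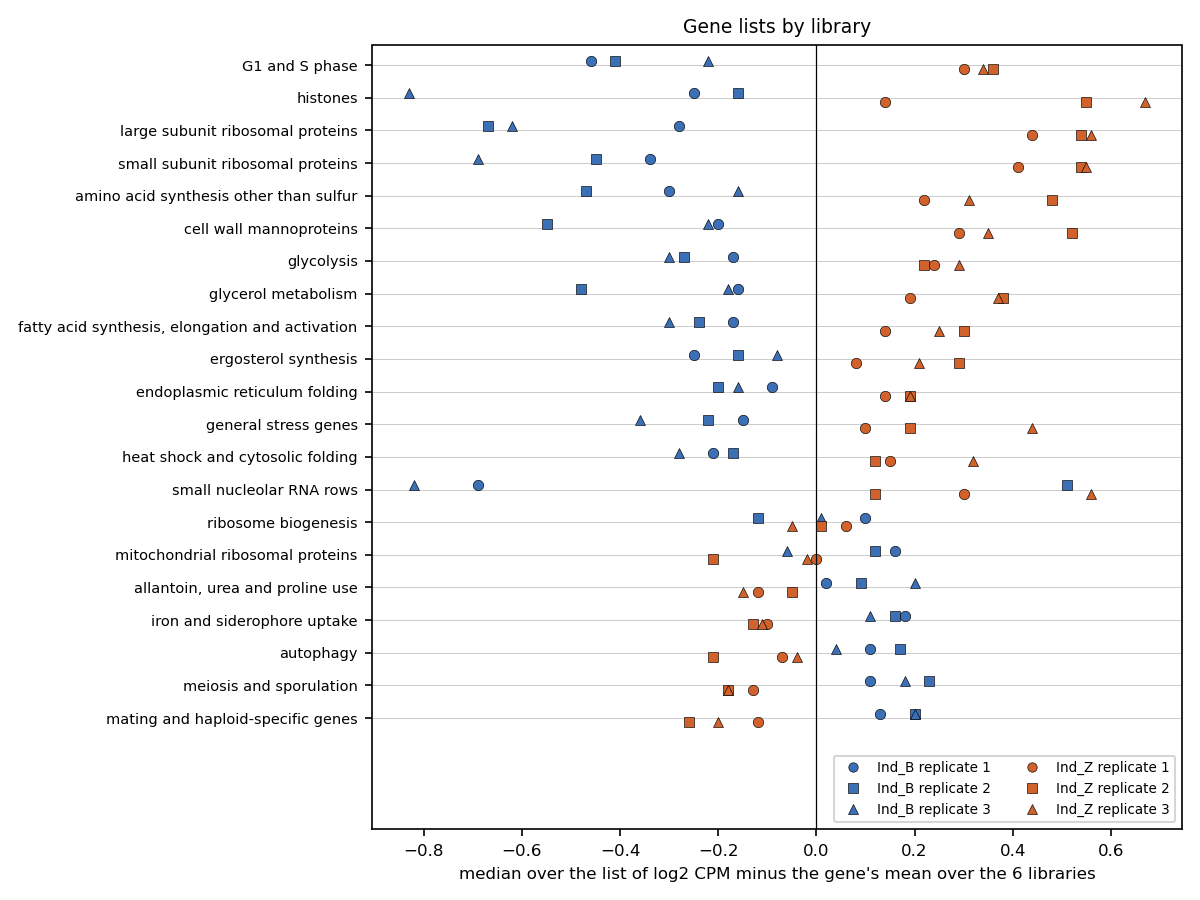
Median over each list of log2 CPM minus the gene's mean over the 6 libraries, one point per library (blue Ind_B, orange Ind_Z, a marker shape per replicate). The groups are apart for most lists shown; for small nucleolar RNA rows Ind_B replicate 2, at 0.51, lies among the Ind_Z libraries, and ribosome biogenesis genes stay within 0.12 of 0 in all libraries.

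Remaining large changes fell outside these lists or lay in short or unannotated rows. Among the falls of at least 50 counts were ARR2 (-1.10), an arsenate reductase gene, YLR460C (-0.97), YOR365C, MCH2 (-0.99), a transporter-family gene, YKL068W-A (-1.01), YER039C-A (-1.01) and YOR392W (-1.07), which had no match in the reference gene table. YLR460C was at 28.3, 29.7 and 25 CPM in Ind_B and 13.5, 13.9 and 15 CPM in Ind_Z, a fall with tight groups (log2 fold change -0.97 ± 0.13 (SE), adjusted p = 0.00161). Hypoxic and oxygen-regulated genes had 8 of 30 called higher and 0 lower, with AAC3, the ADP/ATP carrier of anaerobic growth, at 18.2, 18.3 and 18.1 CPM in Ind_B and 28.7, 43.5 and 43 CPM in Ind_Z (log2 fold change 1.06 ± 0.17 (SE), adjusted p = 0.00335); the count was 5 without Ind_B replicate 1 and 4 without Ind_Z replicate 2 or 3. In the quiescence list 7 of 25 were called higher and 0 lower, with a median of 0.09 and 11 negative fold changes. SPG1, at 13.4, 18.3 and 10.1 CPM in Ind_B and 25.1, 42.8 and 56.6 CPM in Ind_Z (log2 fold change 1.59 ± 0.31 (SE), adjusted p = 0.00761), and OPI10 (1.26) were among the rises. The quiescence kinase gene RIM15 was at -0.06 without a call. MCH2 was not called without Ind_B replicate 3 or Ind_Z replicate 1, 2 or 3. YKL068W-A was not called without Ind_B replicate 1 or Ind_Z replicate 1 or 2. YER039C-A was not called without Ind_B replicate 1 or Ind_Z replicate 2 or 3.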

How the data were processed

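RNA of 9 samples was sequenced after enzymatic removal of ribosomal RNA (Illumina TruSeq), per the labels' protocols. The deposited table holds raw read counts per gene for each library; among tools, TopHat2 2.0.9 and HTSeq 0.6.0 appear in the submitters' processing notes, with no role. No source used here gives the genome build, annotation or strand setting, so reads of overlapping genes could not be assigned to a strand. Of 6357 table rows, 5848 were matched to RefSeq R64 (5783 by locus tag and 65 by symbol). Of these, 174 have a near-identical copy (at least 95% identity over at least 50% of the length).

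Counts of the 6 antifoam libraries (5900571 to 17943055 per library) were tested with edgeR 4.0.16 in R 4.3.3: filterByExpr, TMM factors and the quasi-likelihood test, with Benjamini-Hochberg adjustment and a threshold of 0.05. The script was tested on simulated data. Alternatives used DESeq2 1.42.0 and limma 3.58.1. Upstream motifs were matched by their letters on both strands. By rule, named genes are the 15 that rose most and the 15 that fell most of those called, averaging 50 or more counts with no overlap between groups, and up to 3 called genes per list with the largest change (or the gene of lowest p). Other genes named were chosen after their values were seen. The lists and the comparison were chosen with earlier results of these data known. Results on some named genes are not reported here.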

Additional observations from a re-analysis of the deposited data

How the results depend on the processing

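DESeq2 called 1435 genes (909 higher, 526 lower), limma-voom with quality weights 1407 (912 and 495), RLE factors 1276 (805 and 471), TMM factors without ribosomal protein, mitochondrial and abundant genes 1229 (817 and 412), no filter on low counts 1232 (799 and 433) and a mean of at least 50 counts 1273 (802 and 471). Upper-quartile factors called 868 genes lower. With all 9 libraries in the fit 26 genes were called, 22 higher and 4 lower, and 1564 had an unadjusted p under 0.05. A test against a 1.5-fold change called 157, 154 higher and 3 lower. With 1 library left out, 543 to 1344 genes were called, 453 to 858 higher and 89 to 521 lower; 495 genes were called in all 6 of these fits. A length offset, chosen after seeing the data, called 1489. Of 153 genes named by rule (148 with the 50-count minimum, 152 with the length offset) 0 reversed direction, but calls were lost by 141 with 9 libraries, 99 against a 1.5-fold change, 34 with the block, 10 with upper-quartile factors and 9 to 47 with 1 library left out. Only 9 genes were called in every fit. Upper-quartile factors moved 27 of 56 list medians and changed the sign of 10, each within 0.07 of 0 with TMM factors. The causes were not tested.

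With the replicate number as a replicate block 572 genes were called, 480 higher and 92 lower. The labels do not say that the numbers pair libraries, so they were not taken as pairs. Deviations from the group means correlated at -0.023, -0.239 and -0.446 between same-numbered libraries. Between differently numbered libraries the correlations were -0.066 to 0.333. Deviations within a group are not independent of each other, so these values cannot decide whether the libraries were paired.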
